A study of Ovis aries with 4 samples.

Results

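Transforming growth factor beta (TGF-beta) family ligands, among them the activins and inhibins, are described here through 6 genes, INHBA, INHBB, TGFB2, SMAD2, SMAD3 and SMURF1, in the m6A peak lists of sheep ovary. The genes were chosen by name, and all 6 were found among the 5261 genes with a peak in at least 1 of the 2 deposited lists. N6-methyladenosine (m6A), the most common internal modification of messenger RNA, was mapped in ovarian tissue of Cele black sheep, at an age of 1 to 2 years (young) and of 5 to 6 years (aged), by sequencing RNA pulled down with an antibody against m6A beside an untreated input library. The series has 4 samples, 1 immunoprecipitate and 1 input at each age, and no other treatment or genotype is given in the labels. Whether an RNA sample came from 1 animal or several is not given in the sources used here.

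Ligands of this family are made as dimers. INHBA and INHBB encode the beta chains A and B, which pair with each other to form activins or with the alpha chain to form inhibins, and granulosa cells of the follicle are their main source in the ovary. Activin raises and inhibin lowers the secretion of follicle-stimulating hormone by the pituitary. TGFB2 encodes another ligand of the family. Bound receptors phosphorylate SMAD2 and SMAD3, which join SMAD4 and act on genes in the nucleus. SMURF1 is a ubiquitin ligase that marks proteins of these pathways, among them SMADs and receptors, for degradation.

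Peaks are parts of a transcript where the antibody pulled down more fragments than the input holds. Each peak's fold enrichment over the input, its p-value and its adjusted p-value are the authors' own, and log10 p becomes more negative as a peak becomes more significant. The lists held 4378 young and 3656 aged peaks, none with a fold under 1.5. The median fold was 2.05 (young) and 1.88 (aged), and the median log10 p was -15.3 (young) and -6.22 (aged). With 1 list per age there was no replicate to set the spread, so no test between the ages was made and no difference below has a replicate check. Sequencing depth and the level of each transcript in the input were not given in the sources used here. A gene without a peak may therefore be unmethylated, weakly expressed or too thinly covered, and these cannot be told apart. The same holds for fewer cells of a type and less RNA per cell, as the tissue was profiled in bulk. Of 45 marker genes of ovarian cell types, 23 had a peak in at least 1 list, among them FSHR of granulosa cells in both lists, STAR of theca and luteal cells in the young list, and the oocyte genes NPM2 in both, FIGLA in the young and NOBOX in the aged list. None of 3 erythroid markers had one, nor did the granulosa markers AMH, INHA, CYP19A1 and FOXL2. Of 7 granulosa markers 2 had a peak at each age, FSHR and INHBB, and INHBB is itself one of the 6 genes. The counts were 2 young and 0 aged of 6 theca and luteal markers, 2 and 2 of 7 oocyte markers, and 3 and 2 of 5 stromal markers. They were 1 and 4 of 5 endothelial, 3 and 1 of 4 macrophage, 1 and 0 of 4 smooth muscle, and 3 and 2 of 4 surface epithelium markers. Of the 23 markers with a peak, 17 had a young and 13 an aged one, beside 3846 young and 3086 aged genes of all 5261. The part of cell makeup in the results below was not tested.

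The 6 genes divided evenly between the lists. INHBA and TGFB2, both ligand genes, had peaks in the young list only, SMAD3 and SMURF1, which act inside the cell, in the aged list only, and INHBB and SMAD2 in both. Over the 5261 genes of the lists 41.3% were young-only, 26.9% aged-only and 31.8% shared, so 2 genes of 6 in each class are near the background. The genes carried 6 young peaks in 4 genes and 7 aged peaks in 4 genes. Several peaks in 1 list were found for 2 of the 4 young and 3 of the 4 aged genes, against 12.1% of all young and 15.1% of all aged genes. Those 5 cases were INHBA and INHBB in the young list and INHBB, SMAD2 and SMAD3 in the aged list.

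INHBA, the gene of the activin beta A chain, had 2 young peaks and no aged peak. The first lay on the plus strand of chromosome 4 from 80957225 to 80962467 with a fold of 2.26 and the label start codon. The second followed after 98 bases, from 80962566 to 80972607, with a fold of 2.67 and the label exon. Genome builds are not named in the sources used here, and all positions are those of the deposited files, counted from 1. Both INHBA peaks spanned introns, since the first covered 596 bases of exon in a span of 5243 and the second 149 in a span of 10042. INHBA was the only one of the 6 genes without a peak labelled 3' UTR or stop codon. The start codon label was rare, with 25 of 4378 young peaks (0.571%, Wilson 95% interval 0.387 to 0.842, counting error only). The width of 596 bases was also unusual, reached by 0.365% of young peaks. The peaks shared 1 log10 p of -10.1 and 1 adjusted p of 1.07e-10. The nearest aged peak on the same strand lay in another gene, DDX56, 2428360 bases away.

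TGFB2, the gene of the ligand TGF-beta 2, had 1 young peak of 150 bases, labelled 3' UTR, on the plus strand of chromosome 12 from 21131909 to 21132058. Its fold was 2.67, reached by 20.6% of young peaks, and its log10 p was -8.79, reached by 89.1% of them. The TGFB2 peak thus ranked high in its list by fold and low by significance. The nearest aged peak was in RRP15, 106366 bases away.

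INHBB, the gene of the beta B chain, was the only one of the 6 with 2 peaks at each age, and both pairs overlapped. In the young list the first peak lay on the plus strand of chromosome 2 from 185669958 to 185670107, with the label 3' UTR and a fold of 3.33. The second, labelled stop codon, lay from 185671155 to 185671305 with a fold of 1.58. The aged peaks ran from 185669758 to 185670107 with the label 3' UTR and a fold of 1.67, and from 185671105 to 185671305 with the label stop codon and a fold of 1.85. Each aged peak thus ended at the same base as its young counterpart and began earlier, so that the first was 350 bases wide against 150 and the second 201 against 151.

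The order of the INHBB peaks turned between the lists. The 3' UTR peak was the stronger by fold in the young list, reached by 6.56% of young peaks, and the weaker in the aged list, where 76.1% of peaks reached it. By log10 p the stop codon peak was the more significant in each list, at -18.4 against -9.22 in the young and -4.38 against -3.66 in the aged list. The stop codon peak lay 1047 bases downstream of the 3' UTR peak in the young list and 997 bases downstream in the aged list. Since translation ends upstream of a 3' UTR, the label stop codon is given here as deposited and not as a position. The same order was found in 209 of 223 young pairs and 80 of 96 aged pairs of such peaks within a gene.

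**Figure D1:**
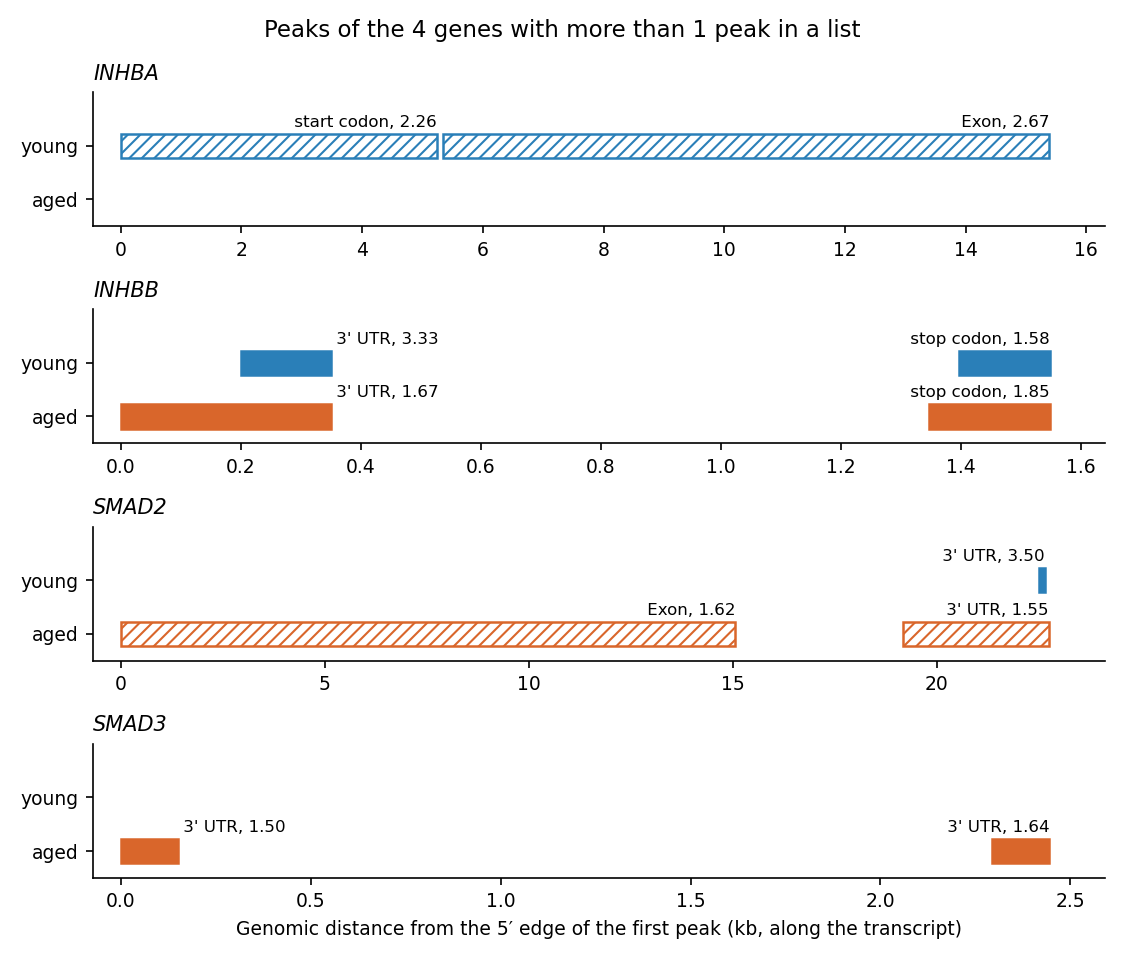
Positions of the peaks of INHBA, INHBB, SMAD2 and SMAD3, with the young list above the aged one. Distances are genomic kilobases from the first peak of each gene in the direction of the transcript, introns included. Filled bars are peaks within 1 exon, hatched bars span introns, and each is marked with its label and fold. Both INHBB pairs end at the same base, and the young SMAD2 peak lies inside the span of an aged one.

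SMAD2, which carries activin and TGF-beta signals to the nucleus, had 1 young and 2 aged peaks. The young peak lay on the minus strand of chromosome 23 from 47832519 to 47832669, with the label 3' UTR and a fold of 3.5, which 4.89% of young peaks reached. One aged peak spanned it, from 47832419 to 47835997, with the same label and a fold of 1.55. It covered 501 bases of exon in a span of 3579, and the deposited files do not say which part of the span is exon. The other aged peak lay 4117 bases upstream, from 47840115 to 47855171, with the label exon, a fold of 1.62 and 151 bases of exon in a span of 15057. No young peak overlapped it. SMAD2 was thus called in 1 short stretch in the young list, and in the aged list over a wider one and a further one upstream, both across introns and at lower folds. The aged peaks shared 1 log10 p of -6.06, against -11.1 for the young peak. With only peaks inside 1 exon, SMAD2 was young-only, because both of its aged peaks spanned introns.

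SMAD3, the close relative of SMAD2, had no young peak and 2 aged ones on the plus strand of chromosome 7, both labelled 3' UTR. They lay from 13992045 to 13992194 with a fold of 1.5 and from 13994339 to 13994489 with a fold of 1.64, 2144 bases apart. The first was at the lowest fold that the lists contain, and 78.9% of aged peaks reached the fold of the second. Both had a log10 p of -5.37, but their adjusted p-values were 1.00e-04 and 2.04e-05. The nearest young peak was 336487 bases away, in C7H15orf61.

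SMURF1 had 1 aged peak of 249 bases, labelled 3' UTR, on the plus strand of chromosome 24 from 37693366 to 37693614. Its fold of 2.00 was the highest of the 7 aged peaks described here, and 42.7% of all aged peaks reached it. Its log10 p of -4.36 was reached by 74.4% of aged peaks. The nearest young peak on either strand was in ARPC1B, 247609 bases away.

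Set beside their own lists, the peaks of these genes differed in strength. In the young list 5 of 6 reached the list's median fold, with a range from 1.58 to 3.5, but only 1 of 6, the INHBB stop codon peak, reached its median log10 p. In the aged list 1 of 7, that of SMURF1, reached the median fold, with a range from 1.5 to 2.00, and none of 7 reached the median log10 p. Folds under 1.65, just above the lowest deposited value, were found for 1 of 6 young peaks and 4 of 7 aged peaks, against 14.5% of all young and 23.5% of all aged peaks. The 4 aged ones were both peaks of SMAD2 and both of SMAD3.

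**Figure D2:**
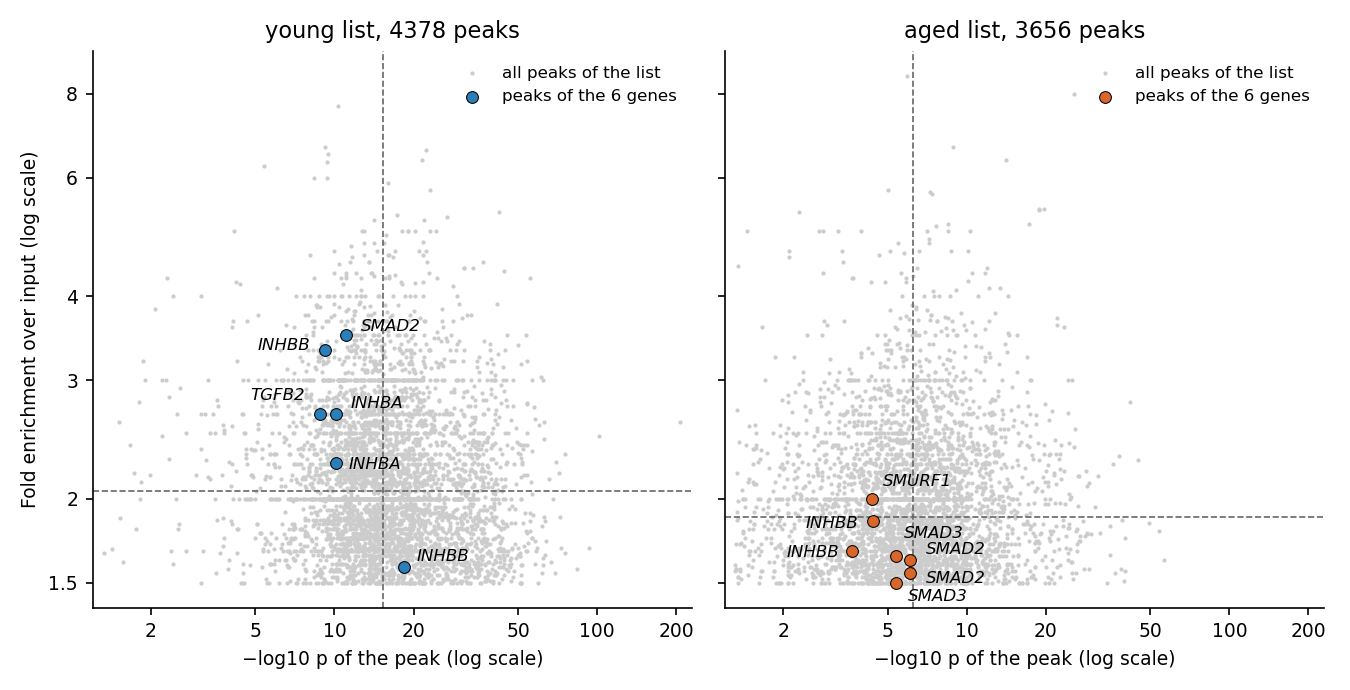
Fold enrichment against the significance of each peak, on log axes, in the young (left) and the aged (right) list, with all peaks in grey, peaks of the 6 genes in colour and dashed lines at each list's medians. In the young list 5 of 6 coloured points lie above the median fold and 5 of 6 left of the median significance, and in the aged list 6 of 7 lie below and all 7 left.

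By label, the 6 young peaks were 3 of 3' UTR, 1 of stop codon, 1 of start codon and 1 of exon. The 7 aged peaks were 5 of 3' UTR, 1 of stop codon and 1 of exon. Over all peaks, 3' UTR labels made up 47.3% of the young and 66.4% of the aged list, and stop codon labels 41.3% and 15.3%. Introns were spanned by 2 of 6 young peaks, both of INHBA, and by 2 of 7 aged peaks, both of SMAD2, against 16.9% and 22.5% of all peaks. In 3 of the 5 cases of several peaks in a list, those of INHBA, aged SMAD2 and aged SMAD3, the peaks had 1 common log10 p. Equal values of log10 p occurred in 20.6% of all young and 40.4% of all aged genes with several peaks, so such peaks are not taken here as separate tests.

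Of the peaks, 3 young ones overlapped an aged one on the same strand, 2 in INHBB and 1 in SMAD2. Over the lists 34.3% of young and 41.0% of aged peaks overlapped. The aged fold divided by the young fold was 0.502 for the INHBB 3' UTR pair, 1.17 for the INHBB stop codon pair and 0.443 for the SMAD2 pair. Over all 1530 overlapping pairs the median of this ratio was 0.961, with quartiles of 0.771 and 1.14, and 56.3% of pairs had the lower fold in the aged list. The SMAD2 ratio was among the lowest 1.11% of pairs and that of the INHBB 3' UTR pair among the lowest 2.75%, while 77.6% of pairs had a ratio at or under that of the INHBB stop codon pair. The low ratios went with high young folds. Among the 212 pairs with a young fold of at least 3, to which both belong, the median ratio was 0.597 and 95.8% were lower in the aged list. The part of this in the INHBB and SMAD2 ratios was not tested.

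**Figure D3:**
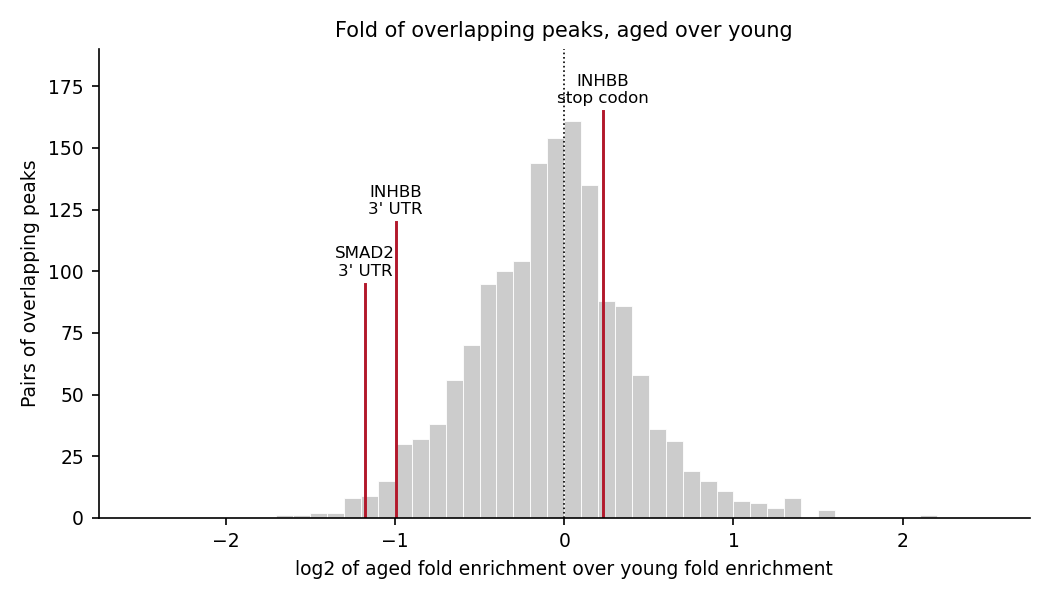
Distribution of the log2 ratio of the aged over the young fold for 1530 pairs of overlapping peaks (grey bars, pairs per bin), with the 3 pairs in SMAD2 and INHBB as red lines and equal folds as a dotted line. The SMAD2 and INHBB 3' UTR pairs lie in the left tail and the INHBB stop codon pair to the right of equal folds.

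In each of the 3 pairs the aged peak was the wider, as in 49.3% of all overlapping pairs. The span of the wider aged peak also held the young peak, as in 28.8% of all pairs. The aged SMAD2 span includes introns, so whether its exon bases cover the young peak is not known. The log10 p was weaker in the aged list in all 3 pairs, as in 93.7% of all pairs. An aged peak at least 2 times as wide was found in 190 pairs, among them those of SMAD2 and the INHBB 3' UTR peak. The median ratio of these pairs was 0.981, against 0.960 over the other 1340. Neither median was limited to pairs with a high young fold, and the part of width in the SMAD2 and INHBB ratios was not tested. Requiring 50% of both spans left 1 of the 3 overlaps, that of the INHBB stop codon peaks, and lowered the shares over all peaks to 24.3% of young and 29.0% of aged peaks. With peaks within 1 exon alone, a setting chosen after seeing the data, 2 of the 3 overlaps were left. The shares over all such peaks were 31.2% of young and 40.1% of aged peaks.

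The other genes of the pathway came from a list of 88 genes that includes the 6, of which 23 had a peak. The share of all annotated genes with a peak was not worked out. Counts of list genes with a peak, here and by role below, therefore do not show whether they are rich or poor in peaks. Of these, 7 were young-only, 5 aged-only and 11 shared, beside 41.3%, 26.9% and 31.8% of all genes in that order. Among 24 ligand genes 5 had a peak, 2 young-only, 3 shared and 0 aged-only, too few to set against those shares. The BMP2 peak, in the gene of a bone morphogenetic protein, had identical boundaries at both ages, with folds of 3.87 (young) and 2.12 (aged). TGFB3 encodes another TGF-beta ligand, and its overlapping peaks had folds of 1.59 and 1.57. No peak was found for INHA, the inhibin alpha chain, for the oocyte ligands GDF9 and BMP15, or for AMH. LTBP1 was the only one of 5 genes for the latent complex with a peak, and it binds TGF-beta in the matrix (2.63 young, 1.62 aged).

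Of 14 receptor genes, 2 had a peak, both in both lists. ACVR2B encodes a type II activin receptor and had overlapping 3' UTR peaks with folds of 2.77 (young) and 2.18 (aged). ACVRL1, a type I receptor gene of endothelial cells, had peaks that lay 447 bases apart, with folds of 2.07 and 1.75. Of the extracellular antagonists, FST, which binds activin, had a peak with identical boundaries at both ages. Its folds were 1.59 and 1.5, and its adjusted p was 1.00e-11 in the young but 0.0724 in the aged list. DCN, a matrix proteoglycan gene, was young-only (2.20).

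Among 8 SMAD genes, SMAD4, the common partner of SMAD2 and SMAD3, was shared with peaks 4580 bases apart and folds of 1.95 (young) and 1.58 (aged). SMAD9, of the BMP branch, was young-only at 2.00, and SMAD1, SMAD5 and the inhibitory SMAD6 and SMAD7 had no peak. Of the ubiquitin enzymes, NEDD4L, a ligase gene like SMURF1, was aged-only (1.83) and the deubiquitinase gene USP15 young-only (2.19). USP9X, a deubiquitinase gene of the X chromosome, was shared, with overlapping 3' UTR peaks of 4.17 (young) and 2.28 (aged). An additional aged peak labelled exon, at 1.65, had no young counterpart, as in SMAD2. It spanned introns and had the same log10 p of -10.7 as the other aged USP9X peak, so these are not taken as separate tests. Of cofactors and anchors, PMEPA1 (1.51) and the phosphatase gene PPM1A (1.62) were young-only and ZFYVE16 (2.64) and the acetyltransferase gene EP300 (1.69) aged-only. Of 7 target genes only TGFBI had a peak, with 2 young peaks (3.00 and 2.00) and 1 aged peak (1.53). The young TGFBI peaks lay 99 bases apart and had 1 common log10 p of -16.8.

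**Figure D4:**
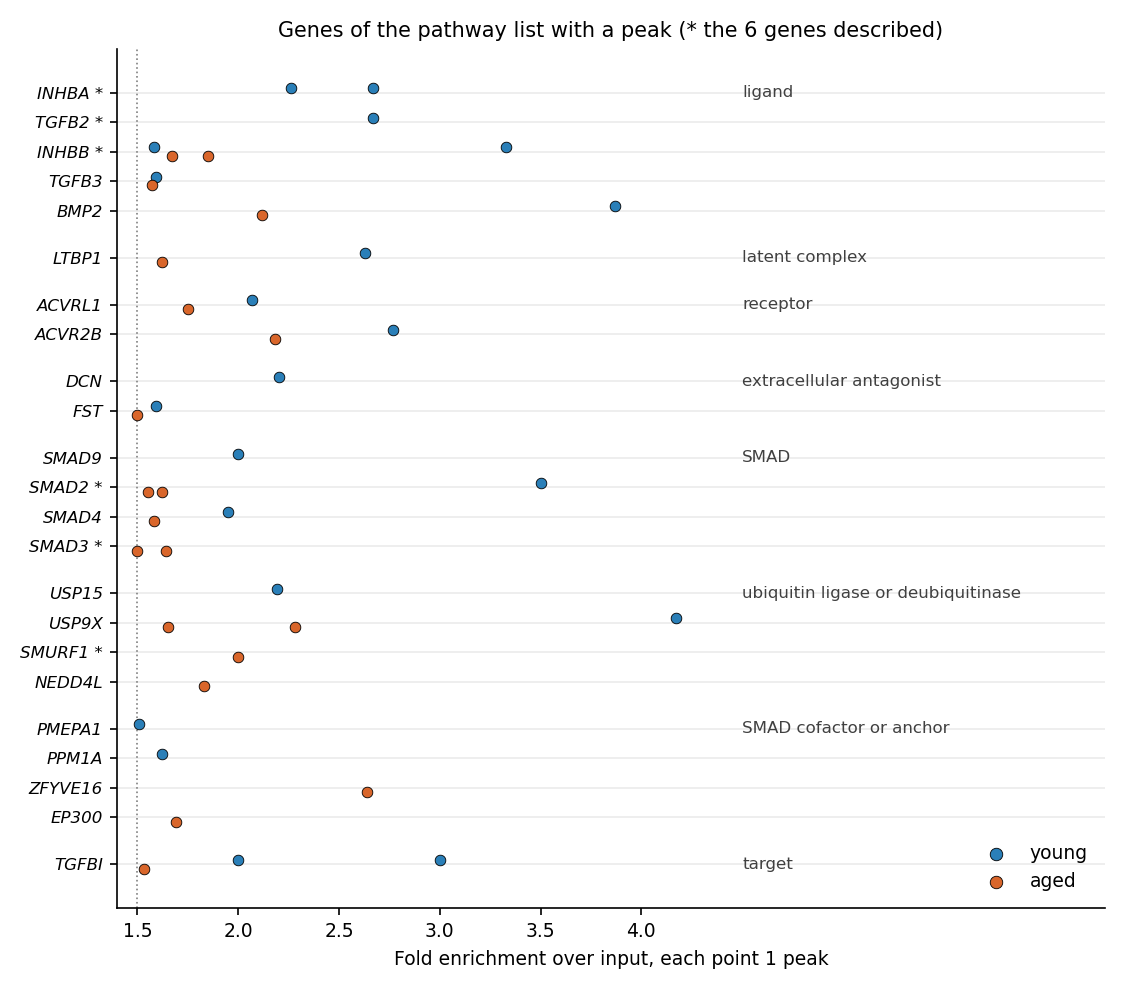
Fold enrichment of every peak in the 23 genes of the pathway list with a peak, grouped by role, with young peaks in blue, aged peaks in orange, 1 point per peak and the lowest deposited fold of 1.5 as a dotted line. In each of the 11 shared genes the highest young point lies to the right of the highest aged point.

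In all 11 shared genes of the list, the highest fold of the gene was lower in the aged than in the young list. The ratio ran from 0.463 in SMAD2 to 0.987 in TGFB3, with a median of 0.616. Over all 1671 shared genes 57.5% were lower and the median was 0.945. These folds were not scaled to the lower median fold of the aged list. Divided by its list's median, the highest fold was higher in the aged list for FST (0.776 young, 0.798 aged) and TGFB3 (0.776 young, 0.835 aged). The other shared genes of the list stayed lower. The highest peaks of a gene were not always at the same site. For INHBB the young 3' UTR peak was set against the aged stop codon peak. For SMAD2 the young 3' UTR peak was set against the aged exon peak, and the peaks of SMAD4 and ACVRL1 did not overlap. Among overlapping peaks of the list, only the INHBB stop codon pair had the higher fold in the aged list, with a ratio of 1.17. The count of 11 genes was made after the values were seen and had no test, and the list was chosen with earlier results of these data known. Matching also by the deposited symbol added 1 gene, an unnamed locus with the symbol CREBBP (a coactivator), which went the other way at 2.37 (young) and 3.40 (aged).

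The deposited annotation itself placed all 6 genes in the TGF-beta signalling pathway, a term given to 28 genes with a peak. Of these, 7 were young-only, 9 aged-only and 12 shared, again beside 41.3%, 26.9% and 31.8% of all genes. Of the 12 shared genes, 10 had the lower highest fold in the aged list, against 57.5% of all shared genes. Most of them were counted above already, namely ACVR2B, BMP2, FST, INHBB, LTBP1, SMAD2, SMAD4 and TGFB3, so this is not a separate set. The further genes with the lower fold were NCOR1 (3.08 young, 2.38 aged) and TFR2 (2.89 young, 2.88 aged). The adjusted p of that NCOR1 peak was 0.0794 in the aged list. With folds as deposited, the exceptions were the CREBBP locus and the kinase gene RPS6KB1 (1.54 young, 2.45 aged). Divided by its list's median fold, TFR2 was also higher in the aged list (1.41 young, 1.53 aged), as were FST and TGFB3. Outside the list of 88, the term held the young-only genes E2F5 (2.29), FMOD (2.74) and RGMA (2.18), of which RGMA encodes a BMP co-receptor. Its aged-only genes outside that list were SP1 (3.00), THBS1 (2.71), SIN3A (2.17), CUL1 (1.72) and TF (1.67, adjusted p 0.0977). THBS1 encodes thrombospondin 1, which can activate latent TGF-beta. Further terms were shared by some of the 6 genes. INHBA, INHBB and TGFB2 carried growth factor activity, given to 31 genes with a peak. INHBA, INHBB, SMAD2 and SMAD3 carried activin receptor signalling, given to 5 genes. SMAD2, SMAD3 and SMURF1 carried binding to receptor-regulated SMADs, given to 8 genes. TGFB2, SMAD2 and SMAD3 together carried many broad pathway terms. Among these were cell cycle (53 genes), cellular senescence (58 genes), Hippo signalling (50 genes) and colorectal cancer (31 genes).

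The division of the 6 genes depended on how strong a peak had to be. With folds of at least 2.00, the median over both lists, INHBA, INHBB, SMAD2 and TGFB2 were young-only, SMURF1 alone was aged-only, none was shared and SMAD3 had no peak. Over all genes the shares at that threshold were 54.7% young-only, 26.1% aged-only and 19.1% shared. With the young list shortened to the length of the aged one by p-value, TGFB2 lost its peak and the other 5 genes kept their class. INHBB lost its young 3' UTR peak (3.33) there and kept only the young stop codon peak (1.58), so 4 young peaks of the 6 genes were left. Of all genes, 37.4% were then young-only, 32.8% aged-only and 29.8% shared. With an adjusted p of at most 0.01 all 6 genes kept their class, beside 43.8%, 25.4% and 30.8% of all genes in that order. Shortening by fold, a setting chosen after seeing the data, also left all 6 in their class, beside 37.1%, 33.4% and 29.5%. With peaks within 1 exon alone, INHBA had no peak and INHBB alone was shared, beside 44.6%, 26.5% and 28.9%.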

How the data were processed

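Each deposited row is a peak with its position, label and gene. Per the file headers, the authors' values are a p-value, an adjusted p-value and a fold enrichment (a ratio of immunoprecipitate to input). Deposited log10 values of both p columns were handled as a score. The submitters' processing notes list ChIPseeker and DESeq2 without a role. No aligner, peak caller or genome build is named in the labels or headers. RNA extraction used Trizol and the library kit kept strand, per the labels' protocols.

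Deposited starts count from 0, and 1 was added. A peak spanned introns where its span exceeded its deposited width. Genes were matched by deposited name. Gene identifiers of 99.5% of peaks matched a RefSeq gene table (assembly ARS-UI_Ramb_v3.0), which gave chromosome numbers only. Overlap meant 1 shared base or more on 1 strand, introns included. Shares have Wilson 95% intervals. The code for overlap and sharing was run on an altered copy of the young list with planted overlaps. That checks the code and not the results above. All 6 genes and every gene of the list of 88 with a peak were named, and genes of the deposited term were added after seeing the data. The 6 genes and the lists were chosen with earlier results of these data known. Alternatives were stricter folds, a stricter adjusted p, equal list lengths, peaks within 1 exon and other overlap rules. Software was Python 3.11.15 with scipy 1.17.1 for intervals, pandas 2.3.3 and numpy 2.4.6 for tables, and matplotlib 3.10.9.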

Additional observations from a re-analysis of the deposited data

How the results depend on the processing

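No paired analysis was possible because there is 1 list per age and the ages share no replicate number. Of 89 values recomputed under other settings, 57 stayed within 1.5 times the reported count or within the reported interval and 32 moved, counting any shift of a fold ratio. The causes were not tested beyond what each setting leaves out. With folds of at least 2.00, the 6 genes were 4 young-only, 1 aged-only and 0 shared, with 1 aged peak left. The list of 88 then had 2 aged-only and 3 shared genes. The deposited term had 5 shared genes, and its balance turned from 7 young-only and 9 aged-only genes to 10 and 6, and all genes were 54.7% young-only and 19.1% shared. With an adjusted p of at most 0.01, all genes were 43.8% young-only and 25.4% aged-only. With equal list lengths by p-value, young-only genes numbered 1 of the 6, 4 of the list and 3 of the term, against 2, 5 and 9 aged-only, which turned the balance of the list, and all genes were 37.4% young-only, 32.8% aged-only and 29.8% shared. Equal lengths by fold, chosen after seeing the data, gave 37.1%, 33.4% and 29.5%, with 5 young-only and 7 aged-only genes of the list. With peaks within 1 exon, 1 of the 6 genes was shared, and all genes were 44.6% young-only and 28.9% shared. At 50% overlap of both peaks, 1 young and 1 aged peak of the 6 genes overlapped, and 24.3% of all young and 29.0% of all aged peaks did. With peaks within 1 exon, also chosen after seeing the data, 31.2% of young peaks overlapped. The log2 ratio of the highest aged to the highest young fold was -0.85 for INHBB and -1.11 for SMAD2. Means over peaks gave -0.48 and -1.14, and folds divided by their list's median gave -0.72 and -0.99, so that neither ratio changed sign. These settings kept the young INHBB 3' UTR peak, and the highest folds of each gene were at different sites at the 2 ages. The overlapping INHBB stop codon peaks went the other way (1.58 young, 1.85 aged), so the sign for INHBB does not hold at both of its sites. Exon blocks and distances to gene ends were not run, since no exon positions or genome of a named build were used here. Depth is unknown, so it sets no limit that could be computed.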
